A study of Homo sapiens with 4 samples.

Results

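Aminoacyl-tRNA synthetases were examined in CaSki cells, an established human cervical carcinoma line positive for human papillomavirus, carrying lentivirally expressed GFP (2 arrays) or ZNF750 (2 arrays). ZNF750 is a zinc finger transcription regulator of squamous epithelia, and the study asked which genes it regulates in squamous carcinoma. Both groups had been infected with lentivirus and kept in medium that the labels list without serum, and no parental, uninfected cells were compared. Each RNA went onto its own Affymetrix HG-U133 Plus 2.0 array. The members were the 19 cytosolic and 16 mitochondrial synthetase genes of a fixed list of 35, read from probe sets whose annotation gave 1 gene symbol. This gave 32 genes with 67 probe sets, of the 19775 genes on the array: 17 cytosolic and 15 mitochondrial. MARS1, QARS1 and TARS2 were not measured, since each of their probe sets also carried the symbol of a microRNA gene. The design text calls the arrays biological duplicates without saying how the cultures were made, so p-values measure the spread between these arrays, which may be partly technical.

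Aminoacyl-tRNA synthetases join each amino acid to its tRNA and so supply the ribosome with charged tRNA. Human cells run protein synthesis both in the cytosol and in mitochondria, and most amino acids have a separate nuclear gene for each compartment, named with a final 1 and 2. GARS1 and KARS1 are exceptions, each supplying both compartments from 1 gene, and EPRS1 joins a glutamyl and a prolyl enzyme in 1 protein, whose mitochondrial counterparts EARS2 and PARS2 are separate. Phenylalanine needs the subunits FARSA and FARSB in the cytosol and the single protein FARS2 in mitochondria. Several cytosolic enzymes sit together in the multisynthetase complex. Many cytosolic synthetase genes are also known targets of ATF4, the transcription factor of the amino acid response, which binds C/EBP-ATF response elements in promoters.

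All differences are log2 values, ZNF750 less GFP, ± is limma's standard error (n = 2 arrays per group), and a gene passed at an adjusted p under 0.05 over all genes. RMA values pull dim signals together, so small folds of dim genes are understated. The single ZNF750 probe set read 2.13 and 2.37 in the GFP arrays and 2.23 and 2.29 in the ZNF750-labelled arrays. It therefore did not show the introduced coding sequence and does not check the labels. Epithelial markers (KRT5, KRT8, KRT18, KRT19, EPCAM, CDH1) read between 10.96 and 13.09 on the arrays. Of these 6 genes, 3 passed as higher (KRT5 by 0.24, KRT19 by 0.16, EPCAM by 0.18) and KRT18 as lower (-0.34). Among all genes with a mean log2 value of at least 6, 11.2% passed as higher and 17.5% as lower. Markers of leukocytes, T cells, endothelium, fibroblasts and hepatocytes (PTPRC, CD3E, PECAM1, COL1A1, ALB) read between 3.90 and 8.55. Of these 5 other-cell markers, 0 passed with limma, and 0 had an unadjusted p under 0.05. As a sign of RNA quality, the 3′ control probe set of ACTB exceeded the 5′ one by 3.03 and 2.81 with GFP and by 3.76 and 3.35 with ZNF750. For GAPDH this gap was 0.63 and 0.61 with GFP, and 0.85 and 0.80 with ZNF750. The bioB hybridization control read 8.88 and 8.95 with GFP and 9.23 and 9.41 with ZNF750, a difference of 0.41. The part of these shifts in the differences given here was not tested.

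Of 17 cytosolic genes, 3 were higher (AARS1, WARS1, NARS1), 5 were lower (SARS1, GARS1, IARS1, VARS1, TARS1) and 9 did not pass. Among 15 mitochondrial genes, 1 was higher (PARS2), 7 were lower (FARS2, WARS2, NARS2, CARS2, VARS2, YARS2, IARS2) and 7 did not pass. Over all genes 18.0% passed, 7.79% as higher and 10.2% as lower. The members were brighter than most genes, and among genes with a mean log2 value of at least 6 the shares were 11.2% higher and 17.5% lower. Against these, 17.6% of the cytosolic genes were higher and 29.4% lower, and 6.67% of the mitochondrial genes were higher and 46.7% lower. The cytosolic genes read between 9.11 and 13.37, far above that limit, and no share matched for brightness was computed. The median difference was -0.03 over the cytosolic genes, -0.28 over the mitochondrial genes and 0.04 over all genes tested. The sign of the cytosolic median turned after cyclic loess (0.03) and after centring on brighter genes (0.01), so it gives no direction. The mitochondrial median was -0.22 and -0.23 under the same scalings. Lower genes made up 56.6% of all calls, and 44.3% and 42.9% after those scalings, which left all 16 member calls in place.

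**Figure D1:**
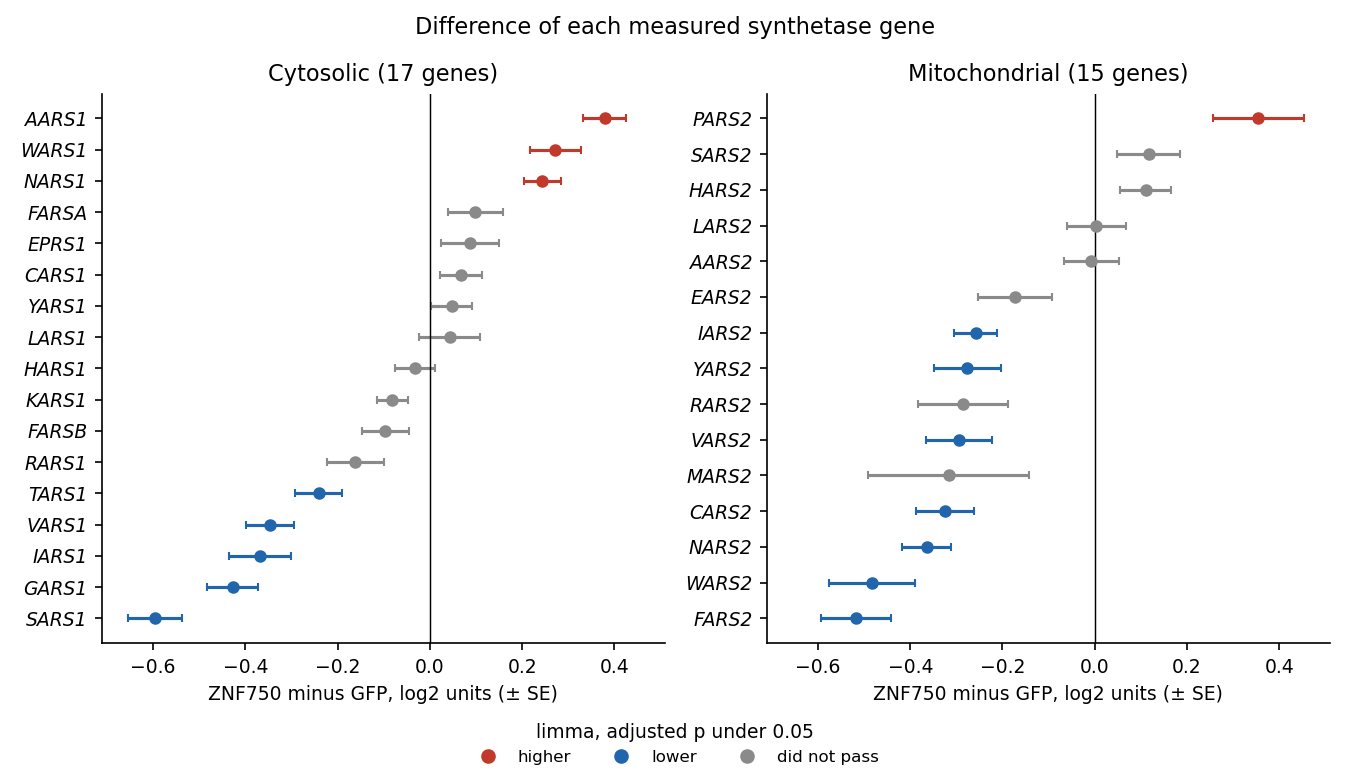
Difference between the ZNF750-labelled and GFP arrays for the 17 cytosolic and 15 mitochondrial synthetase genes, in log2 units with limma's standard error (n = 2 arrays per group). Red and blue points passed as higher or lower and grey points did not; the coloured cytosolic genes lie on both sides of 0 (3 above, 5 below), and 7 of the 8 coloured mitochondrial genes lie below 0.

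All differences were under 1 log2 unit. Each of the 16 members that passed had both ZNF750-labelled arrays on one side of both GFP arrays. This also held for 28 of the 32 measured members and for 58.8% of all genes. Among genes with a mean log2 value of at least 6 it held for 7884 of 11285, so the lack of overlap alone marks little.

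Among the cytosolic genes that fell, SARS1, the seryl-tRNA synthetase, read 10.03 and 9.94 in the GFP arrays and 9.35 and 9.44 in the ZNF750-labelled arrays. Both ZNF750 values lay below both GFP values, a 1.51-fold fall (-0.60 ± 0.059, limma adjusted p = 0.00103), the largest absolute difference when genes are read from their brightest probe set. Averaged over its probe sets SARS1 gave -0.20 and did not pass, and GARS1 had the largest (-0.43). GARS1, the glycyl enzyme of both compartments, read 10.53 and 10.43 with GFP and 10.02 and 10.08 with ZNF750, 1.34-fold lower (-0.43 ± 0.055, limma adjusted p = 0.00246). IARS1, the isoleucyl enzyme of the multisynthetase complex, read 11.53 and 11.48 with GFP and 11.24 and 11.03 with ZNF750 (-0.37 ± 0.067, limma adjusted p = 0.00923). The ZNF750-labelled arrays of IARS1 were spread more widely than those of SARS1 or GARS1 but stayed below the GFP arrays. VARS1, which charges valine, read 10.15 and 10.22 with GFP and 9.87 and 9.81 with ZNF750 (-0.35 ± 0.052, limma adjusted p = 0.00447). TARS1, the threonyl enzyme, had the smallest of these falls, from 12.004 and 11.93 to 11.79 and 11.66 (-0.24 ± 0.051, limma adjusted p = 0.0170).

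Of the cytosolic genes that rose, AARS1, the alanyl enzyme, read 9.87 and 9.91 in the GFP arrays and 10.26 and 10.28 in the ZNF750-labelled arrays. Its duplicates lay close together, and it was 1.30-fold higher (0.38 ± 0.047, limma adjusted p = 0.00225). WARS1, the tryptophanyl enzyme, which is also induced by interferon gamma, read 10.67 and 10.74 with GFP and 11.04 and 10.91 with ZNF750, 1.21-fold higher (0.27 ± 0.056, limma adjusted p = 0.0146). NARS1, the asparaginyl enzyme, read 11.31 and 11.27 with GFP and 11.56 and 11.52 with ZNF750, 1.18-fold higher (0.24 ± 0.041, limma adjusted p = 0.00666). The arrays did not overlap for any of the 3.

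The 9 cytosolic genes that did not pass differed by between -0.16 (RARS1, which charges arginine) and 0.10 (FARSA). The others were EPRS1 (0.09 ± 0.063), CARS1, the cysteinyl enzyme (0.07 ± 0.046), YARS1, the tyrosyl enzyme (0.05 ± 0.045), LARS1, the leucyl enzyme (0.04 ± 0.066), HARS1, the histidyl enzyme (-0.03 ± 0.044), KARS1, the lysyl enzyme (-0.08 ± 0.033) and FARSB (-0.10 ± 0.051). The signs of the 2 phenylalanyl subunits differed, but neither difference passed. By place in the cell, 1 of the 5 measured enzymes of the multisynthetase complex passed (IARS1, lower), with a median of -0.08. Of the 12 cytosolic enzymes outside it, 3 were higher and 4 lower, with a median of 0.01. The shares among all genes with a mean log2 value of at least 6 were 11.2% higher and 17.5% lower. A difference between the enzymes of the complex and those outside it was not tested.

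**Figure D2:**
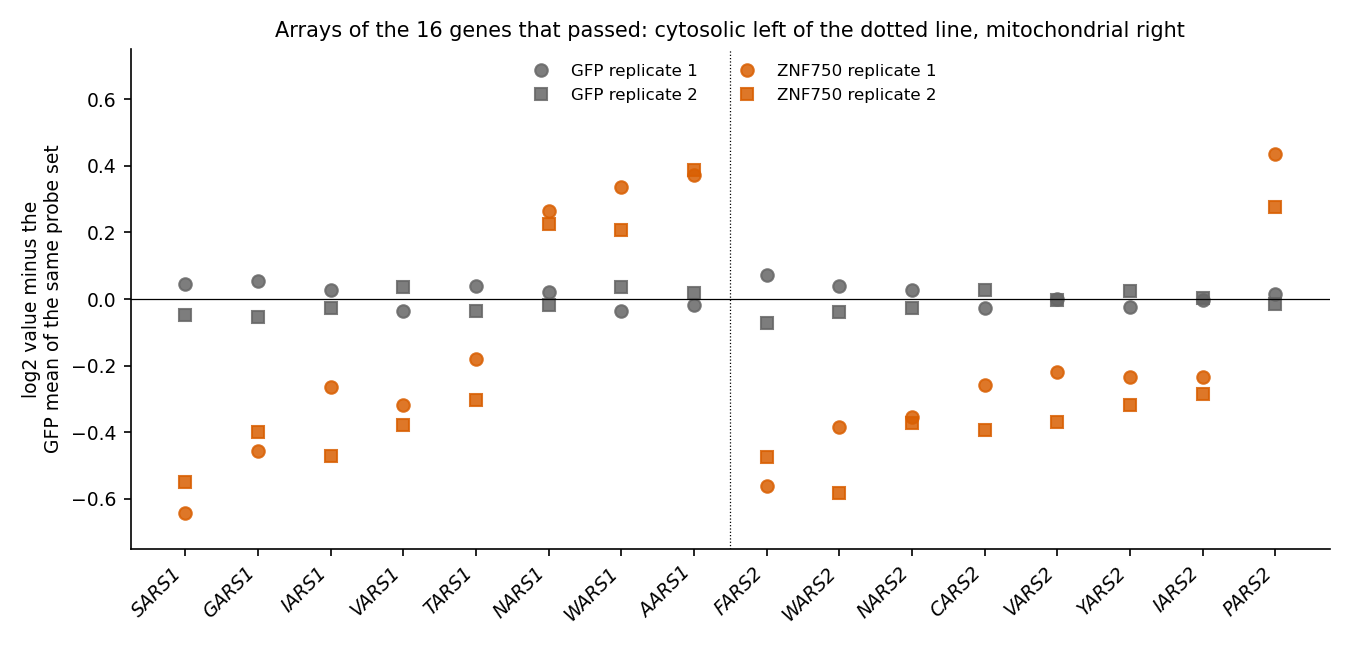
Log2 value of each array minus the GFP mean of the same probe set, for the 16 synthetase genes that passed (cytosolic left of the dotted line, mitochondrial right). Grey symbols are the 2 GFP arrays and orange symbols the 2 ZNF750-labelled arrays; for each gene both orange symbols lie on one side of both grey symbols, from SARS1 (-0.60) to AARS1 (0.38) by mean difference.

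A search of the promoters was planned, and 5 of the 8 cytosolic genes that passed, some higher and some lower, held the same promoter motif. RefSeq windows (GRCh38.p14) from 250 bases before to 50 after each gene start were searched on both strands for the 8-letter C/EBP-ATF response element TGATGNAA, counting a gene once if any of its windows held it. A window was supplied for 14 of the 17 cytosolic and 13 of the 15 mitochondrial genes. The letters were present for 6 of the 14 cytosolic genes (42.9%), for 1 of the 13 mitochondrial genes (7.69%) and for 3.61% of the genes tested that had a window. The 6 were AARS1 and NARS1, which were higher, GARS1, IARS1 and TARS1, which were lower, and CARS1, which did not pass, and the mitochondrial gene was YARS2. Of the amino acid response genes read below, 3 of the 16 with a window held the letters (18.75%). The windows of SARS1 and WARS1 did not hold these letters, and VARS1 had no window. In NARS1 and TARS1 the match lay after the gene start, in CARS1 it spanned the start, and in GARS1 it lay between 2 annotated starts, so these are not printed. A match is a description of letters and does not show a bound site. The remaining 3 are printed 5′ to 3′ on the strand of the gene, with the match in capitals. AARS1 is on the minus strand at chr16:70289644-70289723, with the match 187 to 180 bases before the start. IARS1 is on the minus strand at chr9:92293698-92293740, with the match 13 to 6 bases before the start. YARS2 is on the minus strand at chr12:32756045-32756124, with the match 197 to 190 bases before the start.
AARS1: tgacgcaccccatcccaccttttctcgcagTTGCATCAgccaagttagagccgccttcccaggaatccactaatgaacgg
IARS1: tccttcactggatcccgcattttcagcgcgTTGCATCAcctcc
YARS2: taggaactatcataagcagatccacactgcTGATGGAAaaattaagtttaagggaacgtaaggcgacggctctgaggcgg

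AARS1 and IARS1 carried the identical match TTGCATCA, on the reverse strand of the motif as written, and differed in the opposite sense (0.38 and -0.37). YARS2 carried TGATGGAA on the forward strand.

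Among the mitochondrial genes, FARS2, the phenylalanyl enzyme, had the largest difference. It read 8.68 and 8.54 in the GFP arrays and 8.05 and 8.13 in the ZNF750-labelled arrays, 1.43-fold lower (-0.52 ± 0.075, limma adjusted p = 0.00401). WARS2, the tryptophanyl enzyme, read 7.61 and 7.54 with GFP and 7.19 and 6.99 with ZNF750, 1.40-fold lower (-0.48 ± 0.093, limma adjusted p = 0.0113). NARS2, the asparaginyl enzyme, read 9.64 and 9.58 with GFP and 9.26 and 9.24 with ZNF750, 1.29-fold lower (-0.36 ± 0.053, limma adjusted p = 0.00397). These falls were larger than the gaps between duplicates, the widest of which was that of WARS2 in the ZNF750-labelled arrays.

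The other mitochondrial genes that fell had similar sizes. CARS2, the cysteinyl enzyme, went from 9.49 and 9.55 to 9.26 and 9.13 (-0.32 ± 0.064, limma adjusted p = 0.0123). VARS2, for valine, went from 8.63 and 8.63 to 8.41 and 8.26 (-0.29 ± 0.071, limma adjusted p = 0.0281). YARS2, for tyrosine, went from 7.97 and 8.02 to 7.76 and 7.68 (-0.28 ± 0.072, limma adjusted p = 0.0358). In each the arrays were separate by group. IARS2, for isoleucine, went from 10.23 and 10.23 to 9.997 and 9.95 (-0.26 ± 0.048, limma adjusted p = 0.00953).

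PARS2, the prolyl enzyme, was the mitochondrial gene that rose. It was dim, reading 6.20 and 6.16 with GFP and 6.61 and 6.45 with ZNF750 (0.35 ± 0.099, limma adjusted p = 0.0464). This call was close to the threshold and ended without the intensity trend (adjusted p = 0.0669) and without probe sets ending in _x_at or _s_at (0.0540). Of the 7 that did not pass, MARS2, the methionyl enzyme, had the largest difference (-0.32 ± 0.17). It read 6.35 and 6.47 with GFP and 6.38 and 5.81 with ZNF750, so the groups overlapped and the second ZNF750 array stood apart. Without ZNF750 replicate 1 MARS2 passed (-0.60, limma adjusted p = 0.0423), and without ZNF750 replicate 2 its difference was -0.03. RARS2, for arginine, read 9.42 and 9.16 with GFP and 9.10 and 8.91 with ZNF750 (-0.29 ± 0.098, limma adjusted p = 0.0889). EARS2 (-0.17 ± 0.081), AARS2 (-0.01 ± 0.059), LARS2 (0.0038 ± 0.063), HARS2 (0.11 ± 0.056) and SARS2 (0.12 ± 0.068) made up the rest. By enzyme class, which rests on the fold of the catalytic domain, 5 of the 9 class I mitochondrial genes were lower, with a median of -0.29. Of the 6 class II genes 2 were lower and 1 higher, with a median of 0.05, and the classes were not compared by a test. In the cytosol the order of the medians was the opposite, with 0.04 over 7 class I genes (1 higher, 2 lower) and -0.08 over 9 class II genes (2 higher, 3 lower). EPRS1, which holds both classes, was in neither count. Among all genes with a mean log2 value of at least 6, 11.2% were higher and 17.5% lower.

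In 12 of the 14 pairs both genes were measured. Read from the brightest probe sets, the cytosolic gene had the higher difference in 8 of the 12. Both genes passed in 4 pairs. Both members were lower for isoleucine (IARS1 and IARS2) and valine (VARS1 and VARS2). For asparagine and tryptophan the cytosolic gene was higher and the mitochondrial gene lower. Probe sets of different genes have no common scale, so only the change of the cytosolic minus the mitochondrial value was read, as a description with no test. For WARS1 minus WARS2 it was 3.05 and 3.20 in the GFP arrays and 3.85 and 3.92 in the ZNF750-labelled arrays, a change of 0.75. For FARSA minus FARS2 the value went from 0.43 and 0.62 to 1.14 and 1.15 (0.62), and for NARS1 minus NARS2 from 1.67 and 1.69 to 2.30 and 2.28 (0.61). Serine went the other way, with SARS1 minus SARS2 at 1.94 and 1.901 with GFP and 1.20 and 1.22 with ZNF750 (-0.71). With the mean of probe sets the change was 0.26 for tryptophan, 0.46 for phenylalanine and -0.31 for serine. Its sign turned for leucine (0.039 to -0.019), arginine (0.12 to -0.026) and valine (-0.053 to 0.067). For cysteine it went from 0.39 to 0.023 and for tyrosine from 0.32 to 0.12. Without _x_at and _s_at probe sets tyrosine gave -0.090. These sizes, and the count of 8 pairs, therefore depended on the choice of probe set. NARS1 and NARS2 had 1 probe set each, so the 0.61 of asparagine could not be checked in this way. The values of the groups overlapped for leucine, arginine and valine and not in the other 9 pairs. Since 58.8% of single genes also did not overlap and the share for pairs was not computed, nothing is read from that count.

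**Figure D3:**
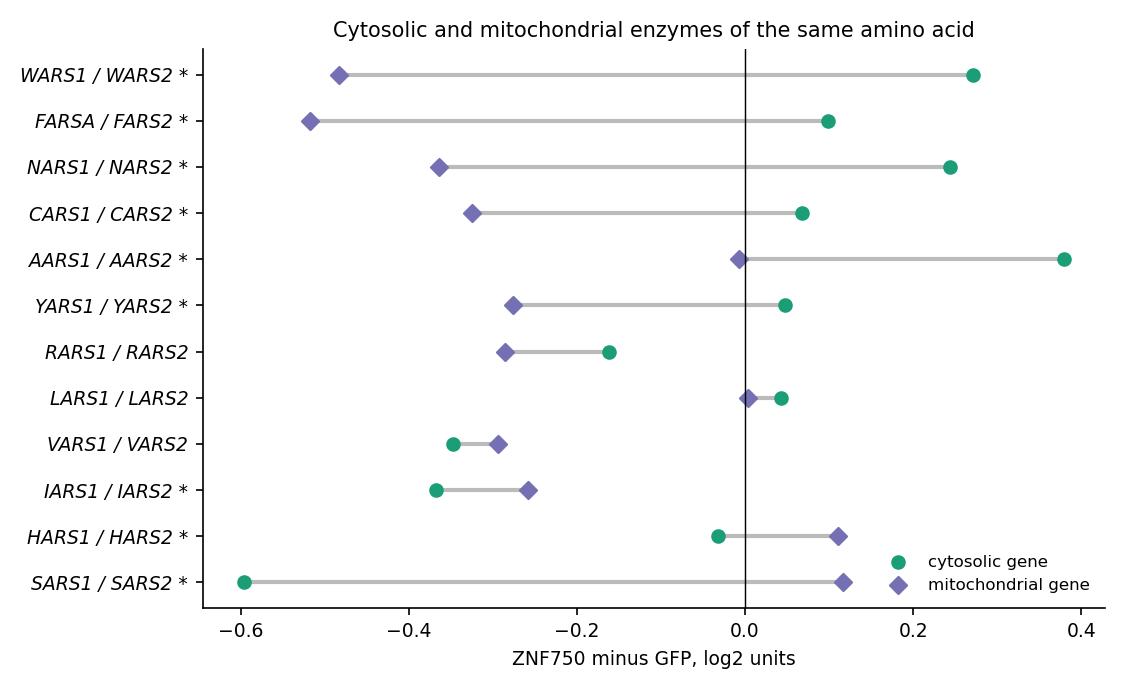
ZNF750 minus GFP difference, in log2 units, of the cytosolic gene (green circles) and the mitochondrial gene (purple diamonds) for 12 amino acids, sorted by the distance between them. An asterisk marks the 9 pairs whose cytosolic minus mitochondrial values did not overlap between groups, as was also the case for 58.8% of single genes; the distance runs from 0.75 for tryptophan to -0.71 for serine.

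Probe sets of 1 gene did not always agree. Of the 67 member probe sets, 4 passed as higher and 13 as lower in a fit over all probe sets, in which 11.5% of probe sets passed. Of these 67, 17 had a mean log2 value under 6. The probe set used for a gene was its brightest, and 18 genes had more than 1. SARS1 was lower on its brightest probe set, but a dimmer one read 6.95 and 6.76 with GFP and 7.14 and 6.98 with ZNF750 (0.20 ± 0.10, limma adjusted p = 0.262). The adjusted p of their mean was 0.0900. WARS1 was higher on its brightest probe set and gave -0.15 ± 0.064 on the other (limma adjusted p = 0.188), and their mean gave 0.06 (adjusted p = 0.423). The signs as well as the sizes of the changes of SARS1 and WARS1 therefore depended on the probe set, and only the brightest of each passed.

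In 3 genes that did not pass, another probe set did. For RARS2, the second brightest read 8.03 and 7.77 with GFP and 7.19 and 7.05 with ZNF750 (-0.78 ± 0.11, limma adjusted p = 0.00517), and its brightest probe set was lower too. For KARS1, the dimmer of its probe sets gave -0.21 ± 0.049 (limma adjusted p = 0.0343) against -0.08 on the brighter. For EPRS1, the second brightest gave 0.36 ± 0.072 (limma adjusted p = 0.0198) against 0.09 on the brightest. FARS2 and VARS1 were smaller with the mean of probe sets but still passed (-0.27, adjusted p = 0.0443, and -0.23, adjusted p = 0.0495). CARS2 and WARS2 did not pass with the mean of their probe sets (-0.07, adjusted p = 0.679, and -0.20, adjusted p = 0.195). Both means took in probe sets with a mean log2 value under 6. The second brightest was lower too, without passing (-0.25 for CARS2 and -0.34 for WARS2). With _s_at probe sets left out, which can match several transcripts, FARSA passed (0.28, adjusted p = 0.0491) and WARS2 did not (-0.34, adjusted p = 0.190). YARS2 and PARS2 gave adjusted p-values of 0.0535 and 0.0624 over all probe sets.

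**Figure D4:**
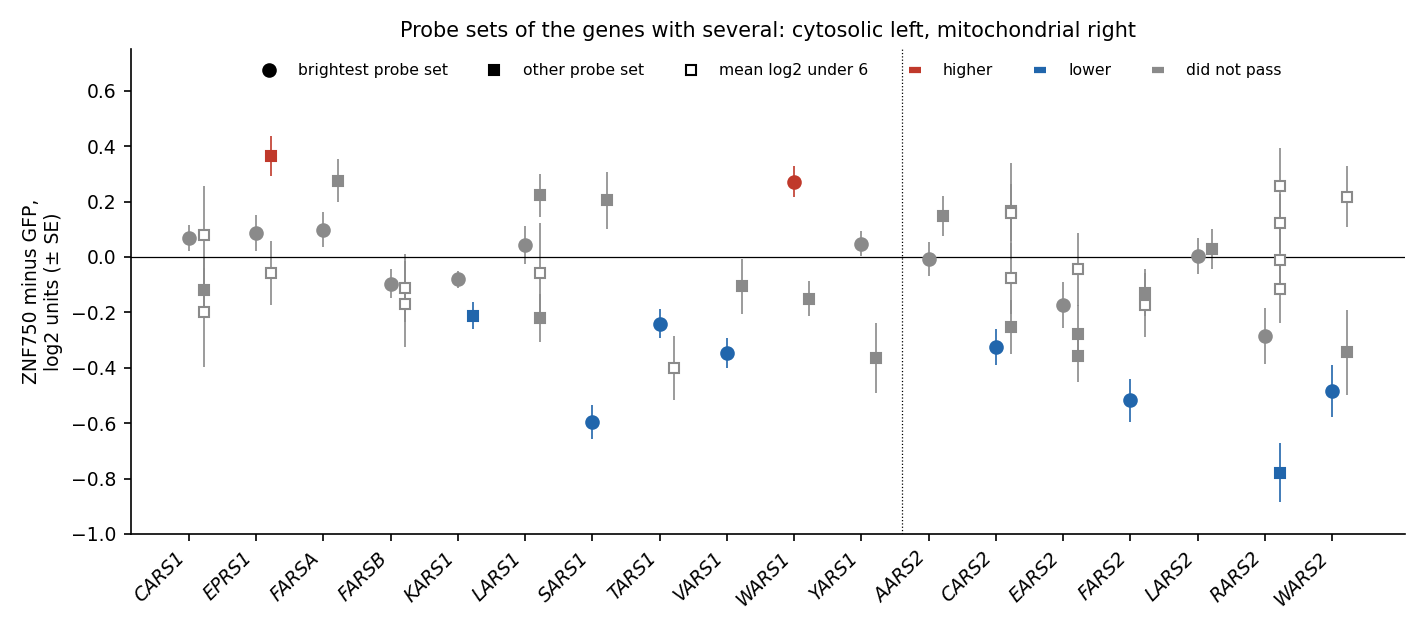
ZNF750 minus GFP difference in log2 units (± limma's standard error, n = 2 arrays per group) of each probe set for the 18 genes with more than 1, from a fit over all probe sets. Circles are the brightest probe set, squares the others, and open symbols have a mean log2 value under 6. SARS1, WARS1 and other genes, such as LARS1 (0.22 and -0.22), have probe sets on both sides of 0. The lowest point is the second probe set of RARS2 (-0.78).

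Leaving out an array left its group with 1 array, which was assumed to vary like the other group. With GFP replicate 1 left out, 0 of the 16 members passed (limma; 16 members had an unadjusted p under 0.05), and 117 genes passed in all. With GFP replicate 2 left out, 0 passed as well (18 at an unadjusted p under 0.05), and 176 genes in all. Without ZNF750 replicate 1 12 kept their call and without ZNF750 replicate 2 9 did. In all these fits the 16 kept their direction. The difference of SARS1 ran from -0.64 to -0.55 and that of AARS1 from 0.36 to 0.40, so both stayed close to their sizes from all arrays. Other members moved more: IARS1 ran from -0.47 to -0.27, WARS2 from -0.58 to -0.38 and CARS2 from -0.39 to -0.26. Without an intensity trend in the variance prior, 6 kept their call: AARS1, SARS1, GARS1, FARS2, NARS2 and WARS2.

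Genes working beside the synthetases were read from lists chosen by function. AIMP1, a scaffold of the multisynthetase complex, read 10.05 and 9.73 with GFP and 9.61 and 9.42 with ZNF750 (-0.37 ± 0.11, limma adjusted p = 0.0532) and was the only measured scaffold gene of 3 listed. Human mitochondria make glutaminyl-tRNA through an amidotransferase (GATB, GATC, QRSL1) and formylate methionyl-tRNA with MTFMT. Of these 4 genes 0 passed with limma (2 at an unadjusted p under 0.05), and the differences ran from -0.20 (MTFMT) to -0.15 (QRSL1). DTD1, a deacylase that removes D-amino acids from tRNA, was lower (-0.44 ± 0.045, limma adjusted p = 0.00108), from 10.53 and 10.56 to 10.11 and 10.10. DTD2, a related deacylase, was higher (0.37 ± 0.050, limma adjusted p = 0.00320), from 9.39 and 9.39 to 9.74 and 9.77. The cytosolic elongation factor EEF2 was higher (0.15 ± 0.031, limma adjusted p = 0.0168), and EEF1A1 (-0.08) and EEF1D (0.08) did not pass. Of the mitochondrial elongation factors TUFM, TSFM and GFM1, 0 passed with limma and 0 had an unadjusted p under 0.05 (differences from -0.08 to 0.07). Among all genes with a mean log2 value of at least 6, 11.2% passed as higher and 17.5% as lower. In lists this short, 0 passing is therefore not read as a lack of change.

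Of 20 genes of the amino acid response, which includes ATF4 targets, 9 rose, 4 fell and 7 missed the threshold (median 0.07). These are 45% higher and 20% lower, beside 11.2% and 17.5% among genes with a mean log2 value of at least 6, so the share that fell was near the background. The largest differences were those of DDIT4, an inhibitor of mTORC1 signalling (0.92 ± 0.051, limma adjusted p = 0.000142), PSPH, the last enzyme of serine synthesis (0.67 ± 0.057, 0.000638), and DDIT3, a C/EBP family factor (0.65 ± 0.070, 0.00131). EIF2AK4, the kinase that senses uncharged tRNA, was lower (-0.49 ± 0.063, limma adjusted p = 0.00257), reading 8.52 and 8.50 with GFP and 8.03 and 8.02 with ZNF750. These last genes, EIF2AK4, ATF4 and ASNS, were named after their values were seen. ATF4 itself differed by 0.03 ± 0.037 and ASNS, the asparagine synthetase gene, by -0.15 ± 0.057, neither passing. Of 5 interferon genes, read beside WARS1, ISG15 was higher (0.55 ± 0.054, limma adjusted p = 0.000913) and 4 did not pass, among them GBP1 (0.27 ± 0.11) and MX1 (0.18 ± 0.080).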

How the data were processed

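The values analysed are the authors' log2 signals of 54675 probe sets on 4 arrays, as deposited. Normalization was by RMA, per the submitters' processing notes (version not given in the sources used here). No scanner files or detection calls were used, so the number of arrays limits the precision and a dim gene cannot be told from background. Symbols came from the platform annotation: 41091 probe sets had 1 symbol, 1801 several and 11721 none, and 62 controls were left out. A gene was read from its brightest probe set over all 4 arrays. Differences were fitted over 19775 genes with limma 3.58.1 in R 4.3.3 (lmFit, eBayes with an intensity trend, 2 residual degrees of freedom) and adjusted by Benjamini-Hochberg. The fit was run on simulated data as a check of the code, which does not bear on the calls given here. An exact permutation test of 2 against 2 arrays cannot give a two-sided p under 0.333 and was not used. The members, gene lists and tests were chosen with earlier results of these data known. The rule for naming took every member, with array values for those that passed and the 3 largest differences of each compartment, and up to 3 genes of each function list. Protein comparisons were planned but not made here. Alternatives covered the variance prior, dim genes, probe set choice, cyclic loess, centring, a replicate block and leaving out each array.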

Additional observations from a re-analysis of the deposited data

How the results depend on the processing

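The counts were 1541 genes higher and 2013 lower, 3 and 5 cytosolic, and 1 and 7 mitochondrial. Without the intensity trend they were 713 and 782, 1 and 2, and 0 and 3 (1 mitochondrial gene higher at an unadjusted limma p under 0.05). Centring on brighter genes gave 2529 genes higher, and RARS2 also passed (-0.24, adjusted p = 0.0333). Without _x_at and _s_at probe sets 2 cytosolic genes were lower and 0 mitochondrial genes higher (1 unadjusted), with 12 cytosolic genes left to test. Leaving out 1 array gave 59 to 703 genes higher and 58 to 1155 lower, 0 to 3 and 0 to 5 cytosolic, and 0 and 0 to 7 mitochondrial, with fewer arrays in each limma fit (3 or 4 cytosolic and 0 or 1 mitochondrial genes higher at an unadjusted p under 0.05). The cytosolic median moved from -0.03 to -0.13 with the mean of probe sets, 0.034 after cyclic loess and 0.013 after centring, and the cause was not tested. Members whose sign turned had not passed. With the mean of probe sets these were CARS1 (-0.043), LARS1 (-0.0028), YARS1 (-0.16) and AARS2 (0.070). YARS1 gave -0.37 without _s_at probe sets, HARS1 0.034 and AARS2 0.047 after cyclic loess, and HARS1 0.013 and AARS2 0.038 after centring. Leaving out 1 array gave -0.046 to 0.13 for LARS1, -0.029 to 0.036 for LARS2 and -0.020 to 0.0061 for AARS2. Arrays share only a replicate number; the correlation of deviations of the first replicates was 0.16 across genes. With the replicate block 1676 genes were higher and 2291 lower, the 16 member calls stood and RARS2 also passed (adjusted p = 0.0168).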
